A study of Xenopus laevis with 6 samples.

Results

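Peptide hormones and their receptors are described here through 4 genes of the Xenopus laevis hind limb bud, pnoc.L, nmu.S, fshr.L and sstr3.L, out of 51061 gene IDs in the deposited fragment count table. Xenopus laevis, the African clawed frog, is an allotetraploid, and the letters L and S mark the homeologous copies of its 2 subgenomes. They are 4 of 6943 gene IDs that carry a name in the authors' deposited table of differential expression. The 4 were chosen by the size of their fitted fold changes in these same libraries: pnoc.L, nmu.S and fshr.L between distal and proximal, nmu.S also between distal and medial, and sstr3.L between medial and proximal. Their differences between segments are therefore given as a description, with no test.

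The study sequenced RNA from hind limb buds of wild type tadpoles at stage 51, cut into a distal, a medial and a proximal segment. Each segment had 2 biological replicate pools of 30 hind limbs, labelled black (pool 1 here) and red (pool 2), which gives 6 libraries, each made from 1 ug of total RNA. No animal was treated and no group carries an engineered allele. Each pool mixes limbs, so variation between single animals was not measured.

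Pronociceptin, the product of pnoc, is a precursor protein that is cut to release nociceptin, a neuropeptide related to the opioid peptides that signals through a receptor of its own. Neuromedin U, encoded by nmu, is a peptide named for its action on uterine muscle in mammals, and it acts through the receptors encoded by nmur1 and nmur2. The product of fshr is the receptor for follicle-stimulating hormone, best known from the gonads, and that of sstr3 is one of the receptors for somatostatin, a peptide that inhibits the release of other hormones. All of these receptors are G protein-coupled receptors, which sit in the cell membrane and respond to ligands that reach the cell from outside.

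Fragments assigned to genes numbered between 10815041 and 35479915 per library, with proximal pool 1 the shallowest and proximal pool 2 the deepest. Levels are counts per 1000000 assigned fragments, scaled between libraries with TMM factors (CPM). A count of 3 fragments, taken as the detection floor of a library, corresponded to between 0.0840 and 0.283 CPM. Floors and intervals cover counting error only and leave out the variation between pools. The libraries carried no molecular identifiers, so copies made by amplification are counted as fragments. Of 7 marker genes fixed for hind limb mesenchyme, 6 were named in the authors' deposited table, as 9 copies that include pitx1.L and hoxc10.L. Their summed level was 832 and 824 CPM in the distal libraries, 1167 and 1275 CPM in the medial ones and 1123 and 1108 CPM in the proximal ones.

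All 4 genes had few fragments. In the segment where each was highest, its mean CPM, a level not divided by length, lay at percentile 24.5 (pnoc.L), 30.2 (nmu.S), 38.0 (fshr.L) and 14.2 (sstr3.L) among the highest segment means of the 27007 genes that passed the filter on low counts. Summed over the 6 libraries, pnoc.L had 120 fragments, nmu.S 335, fshr.L 420 and sstr3.L 71. In bulk tissue, fewer cells that express a gene and less RNA of it per cell cannot be told apart, and this holds for every level given here.

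pnoc.L, the precursor of nociceptin, was the one distal gene among the 4. It lies on chromosome 5L from 153052579 to 153127930 on the plus strand (gene16126), with 3 exons after merging and 1539 bases of exonic length. Positions are those in the header columns of the count table. The build they refer to is not given in the sources used here. The 2 distal pools held 66 and 49 fragments (2.75 and 3.31 CPM), the medial pools 4 and 1 fragments (0.147 and 0.0363 CPM), and the proximal pools none. The distal pools lay far above the other libraries, the distal and medial values did not overlap, and the medial pools stood near the floor.

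At the mean distal level of 3.03 ± 0.39 CPM (SD, n = 2), proximal pool 1 would have held 32 fragments of pnoc.L and proximal pool 2 would have held 108. Against the floor of the shallower proximal library, the distal level was at least 10.7-fold higher, and at least 36.1-fold higher without proximal pool 1, the shallower one. Against medial, pooled over both libraries, the ratio was 32.5, with an exact 95% interval of 13.5 to 102 from 115 distal and 5 medial fragments. The ratio of the segment means, 33.1, became 83.6 without medial pool 1 and 20.7 without medial pool 2. The difference between medial and proximal was within the limit that a count of 0 allows, and no fold is given for it. Of 22596 genes with at least 1 CPM in distal, 41 (0.181%) had 3 or fewer fragments in each proximal library, and pnoc.L was one of them. Only 15 (0.0664%) had 3 or fewer fragments in each medial library, and pnoc.L, with 4 in medial pool 1, was not among those.

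nmu.S, the precursor of neuromedin U, was found in the inner segments. It lies on chromosome 1S from 29480666 to 29517244 on the minus strand (gene49774), with 8 merged exons and 897 bases of exonic length. Neither distal pool held a fragment, the medial pools held 52 and 85 (1.91 and 3.08 CPM), and the proximal pools held 52 and 146 (4.91 and 4.09 CPM). Medial and proximal values did not overlap, although the 2 medial pools differed by a factor of 1.62.

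At the mean proximal level of nmu.S, 4.50 ± 0.58 CPM, the distal pools would have held 108 and 67 fragments, and at the mean medial level, 2.496 ± 0.83 CPM, they would have held 60 and 37 (SD, n = 2 each). Against the floor of the shallower distal library, the distal level was at least 22.2-fold lower than the proximal one and at least 12.3-fold lower than the medial one. Without distal pool 2, the shallower one, these bounds were 35.8 and 20.1. The mean medial level was 1.80-fold lower than the proximal one, and neither medial pool reached either proximal pool. Per kilobase of exon nmu.S had the highest level of the 4 genes, with 5.02 ± 0.65 CPM per kilobase in proximal (SD, n = 2).

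fshr.L, the receptor of follicle-stimulating hormone, was highest in proximal, lower in medial and without a fragment in distal. It lies on chromosome 5L from 4372573 to 4487295 on the plus strand (gene5940), with 10 merged exons and 4928 bases of exonic length. The distal pools held no fragment, the medial pools 39 and 29 (1.43 and 1.05 CPM), and the proximal pools 68 and 284 (6.42 and 7.95 CPM). The 3 segments did not overlap, and the pools of each segment lay close together once scaled for depth.

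With 7.19 ± 1.08 CPM in proximal (SD, n = 2), fshr.L at that level would have given 172 and 106 fragments in the distal pools. The distal level was at least 35.5-fold lower than the proximal one and at least 6.13-fold lower than the medial one. Without distal pool 2 these bounds were 57.2 and 9.98. The medial mean of 1.24 ± 0.27 CPM was 5.79-fold below the proximal mean (SD, n = 2).

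sstr3.L, a somatostatin receptor, had the fewest fragments of the 4, and the proximal libraries held 69 of its 71 fragments. It lies on chromosome 4L from 116013978 to 116038771 on the plus strand (gene4894), with 2 merged exons and 2427 bases of exonic length. The distal pools held 2 and 0 fragments (0.0834 CPM in pool 1), the medial pools none, and the proximal pools 12 and 57 (1.13 and 1.60 CPM). Distal and medial values were at or under the floor of their libraries, and both proximal values were above theirs.

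At the mean proximal level of sstr3.L, 1.36 ± 0.33 CPM (SD, n = 2), the distal pools would have held 33 and 20 fragments and the medial pools 37 and 38. The medial level was at least 12.4-fold lower than the proximal one. For distal against proximal the pooled ratio was 28.9-fold lower in distal, with an exact 95% interval of 7.70 to 243 from 2 distal and 69 proximal fragments. The ratio of the segment means, 32.7, became 16.3 without distal pool 2, and without distal pool 1 the distal level was at least 6.72-fold lower. Whether distal and medial differ could not be detected at this depth.

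**Figure D1:**
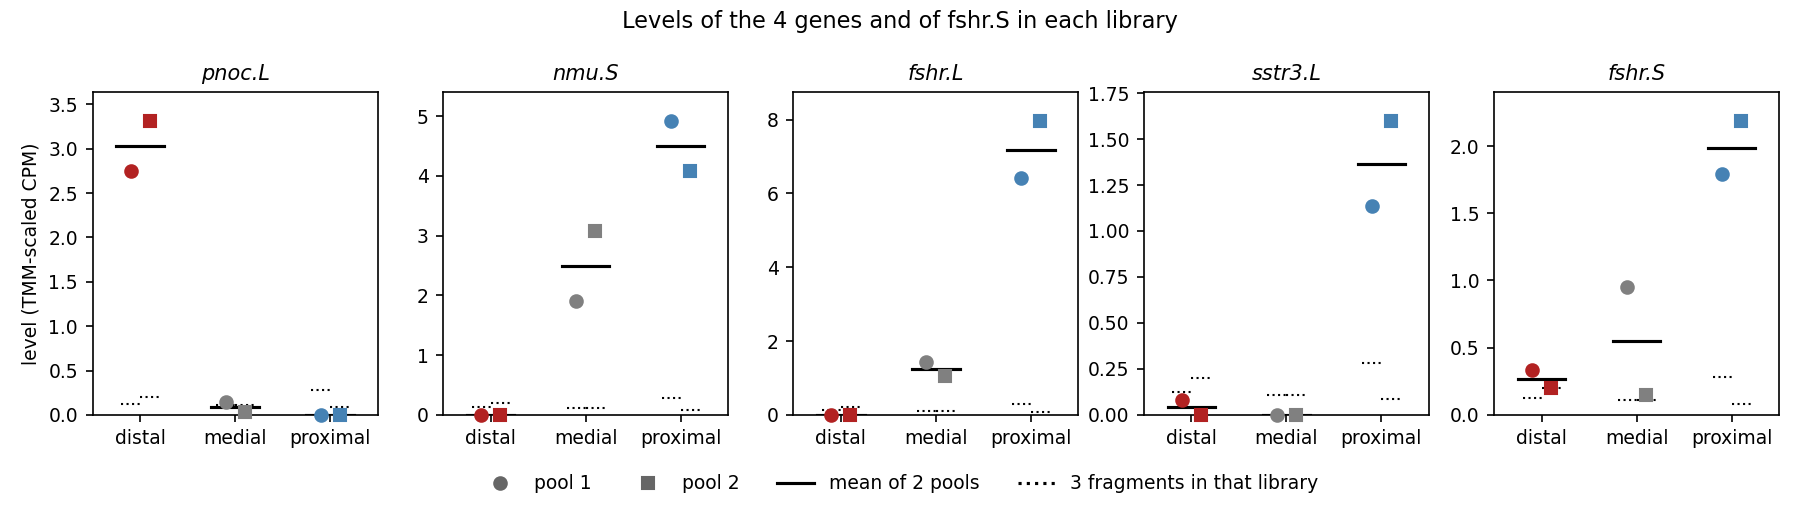
Level of pnoc.L, nmu.S, fshr.L, sstr3.L and fshr.S in each library (vertical axis, TMM-scaled CPM, with its own scale in each panel) by segment (horizontal axis). Points are the 2 pools, bars their mean and dotted lines the level of 3 fragments in that library. pnoc.L reaches 2.75 and 3.31 CPM in distal, and nmu.S, fshr.L and sstr3.L are highest in proximal.

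nmu.S, fshr.L and sstr3.L belonged to 171 of 23308 genes (0.734%) with at least 1 CPM in proximal and 3 or fewer fragments in each distal library. Between distal and medial, nmu.S and fshr.L were among 78 of 22908 genes (0.34%) with at least 1 CPM in medial and 3 or fewer fragments in each distal library. Between medial and proximal, sstr3.L was among 28 of 23308 genes (0.12%) with at least 1 CPM in proximal and 3 or fewer fragments in each medial library. These shares describe how uncommon such near-complete differences were, and since the 4 genes were chosen for them they support nothing further. The authors' deposited table lists fshr.L in all 3 comparisons of segments and the other 3 genes in 2 each. The wider differences of the limb bud form the background to this: between distal and proximal 29.5% of genes were called by edgeR at an adjusted p under 0.05, between distal and medial 25.0%, and between medial and proximal 7.6%.

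**Figure D2:**
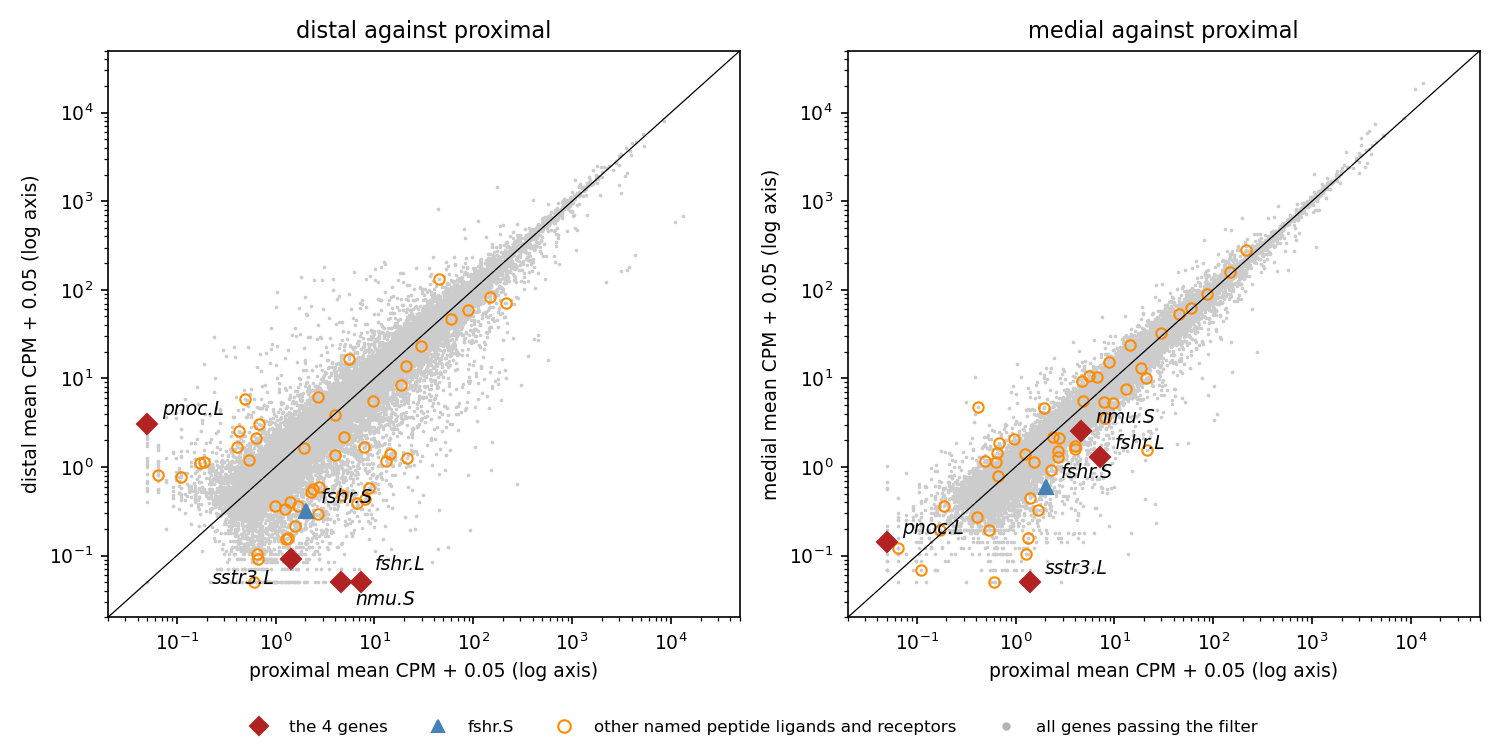
Mean level in distal (left) and in medial (right) against the mean level in proximal, for the 27007 genes that passed the filter, both axes logarithmic after adding 0.05 CPM. Diamonds are the 4 genes, the triangle is fshr.S and open circles are other named peptide ligands and receptors. A mean of 0 CPM is drawn at 0.05. This holds for pnoc.L on the proximal axis, nmu.S and fshr.L on the distal axis, and sstr3.L on the medial axis.

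Markers of other cell types are given as summed levels, as a description only. Only genes in the authors' table of calls carry a name, and markers without a name are left out. Of named genes tested, 88.3% were called between distal and proximal by edgeR. A difference in these sums was therefore likely from the choice of genes alone. Blood genes, 14 of 16 named as 23 copies, summed to between 1127 and 2291 CPM in the distal libraries, between 49497 and 56895 CPM in the medial ones and between 26720 and 37208 CPM in the proximal ones. Nerve and Schwann cell genes, 4 of 12 named as 7 copies, summed to 9.97 and 11.9 CPM in distal, 43.1 and 34.1 CPM in medial and 39.6 and 48.1 CPM in proximal, with mpz.S at 0 in both distal libraries. Muscle genes, 9 of 12 named as 13 copies, summed to 20.8 and 7.90 CPM in distal, 22.2 and 24.5 CPM in medial and 47.8 and 73.5 CPM in proximal, with pax7.L, myog.L and myog.S at 0 in both distal libraries.

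Cartilage genes, 6 of 7 named as 9 copies, summed to between 560 and 568 CPM in distal, between 970 and 1207 CPM in medial and between 1274 and 1535 CPM in proximal. Endothelial genes, 6 of 9 named as 10 copies, summed to between 262 and 294 CPM in distal, between 350 and 383 CPM in medial and between 439 and 453 CPM in proximal. Immune genes, 3 of 7 named, summed to between 3.92 and 6.13 CPM in distal, 12.8 CPM in both medial libraries and between 13.4 and 16.9 CPM in proximal. Epidermal genes, 6 of 9 named as 12 copies, had their highest sum in distal, the segment where pnoc.L was highest. They summed to between 1247 and 1366 CPM in distal, between 270 and 572 CPM in medial and between 299 and 353 CPM in proximal. Of these 12 copies, 8 were called higher in distal than in proximal by edgeR and 2 lower. Among 6912 named genes tested, 2716 were higher and 3384 lower. The part of these cell types in the levels of the 4 genes was not tested.

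The exons of the 4 genes and of fshr.S overlap no other gene of the count table. The nearest gene before pnoc.L is elp3.L, 97.7 kilobases away, with 29.2 ± 0.65 CPM in distal, 24.8 ± 0.79 CPM in medial and 22.1 ± 3.01 CPM in proximal (SD, n = 2 each). elp3.L, a subunit of the Elongator complex, rose in distal against proximal by 0.42 on the log2 scale (SE 0.11, edgeR adjusted p = 0.0150), a call lost without distal pool 1 (adjusted p = 0.114), distal pool 2 (0.0645) or proximal pool 2 (0.181). elp3.L was present in both proximal libraries, in which pnoc.L was at 0. The gene after pnoc.L is nearer, gene12897 (without a name), 32.45 kilobases away. It had 20.9 ± 4.30 CPM in distal, 23.8 ± 3.87 CPM in medial and 18.1 ± 0.83 CPM in proximal (SD, n = 2 each). gene12897 was called in no comparison, and neither was gene1574 (without a name), 19.2 kilobases before nmu.S. The nearest gene before sstr3.L is rac2.L, 0.838 kilobases away, a small GTPase of blood cells. rac2.L had 2.70 ± 0.38 CPM in distal, 4.07 ± 0.73 CPM in medial and 5.71 ± 0.47 CPM in proximal (SD, n = 2 each) and fell in distal against proximal (−1.04 on the log2 scale, SE 0.22, edgeR adjusted p = 0.00363). Counting did not use strand, and a contribution of rac2.L fragments to sstr3.L was not tested.

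The authors' deposited table names 1 other copy of the same roots, fshr.S, on chromosome 5S from 23354431 to 23438125 on the minus strand (gene41921), with 10 merged exons like fshr.L and 2103 bases of exonic length. Neither pnoc, nmu nor sstr3 has a further named copy there. The RefSeq gene table for assembly Xenopus_laevis_v10.1 lists pnoc.S, nmu.L and sstr3.S, and their levels were not analysed here because the count table could not be matched to these names.

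fshr.S had its highest level in proximal, as fshr.L did. The distal pools held 8 and 3 fragments (0.334 and 0.203 CPM), the medial pools 26 and 4 (0.954 and 0.145 CPM), and the proximal pools 19 and 78 (1.79 and 2.18 CPM). The proximal pools lay above all others, and the medial pools spread so widely that they enclosed the distal ones. fshr.S fell to 0.27 ± 0.09 CPM in distal, against 1.99 ± 0.28 CPM in proximal (SD, n = 2 each; log2 fold change of −2.84 with SE 0.68, edgeR adjusted p = 0.0125). This call was lost without distal pool 1 (adjusted p = 0.0996), distal pool 2 (0.0921) or proximal pool 2 (0.116), while the log2 fold change stayed between −3.29 and −2.59.

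Medial against proximal, fshr.S had a log2 value of −1.89 (SE 0.56, edgeR adjusted p = 0.0868), and distal against medial it had −0.95 (SE 0.80, edgeR adjusted p = 0.438). With no filter on low counts the first was called (−1.89, adjusted p = 0.000137). The medial pools decided both values. Without medial pool 1 the medial to proximal value was −3.77 (adjusted p = 0.000186) and the distal to medial value turned to 0.93 (adjusted p = 0.440). Without medial pool 2 the distal to medial value was −1.74 (adjusted p = 0.0205).

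Of the fragments of both fshr copies, fshr.L held 0 of 8 and 0 of 3 in the distal pools, 39 of 65 and 29 of 33 in the medial pools, and 68 of 87 and 284 of 362 in the proximal pools. As shares these were 60.0% (exact 95% interval 47.1% to 71.96%) and 87.9% (71.8% to 96.6%) in medial, and 78.2% (68.0% to 86.3%) and 78.5% (73.9% to 82.6%) in proximal. The shares are not corrected for length: fshr.L has 4928 annotated exonic bases and fshr.S 2103, a difference that lies mostly in the last exon. Levels per kilobase rest on the same annotation. Fragments that map to both copies were not counted, and the effect of either limit was not tested. Over both distal libraries, 0 of 11 fragments allows a share of fshr.L of up to 27.3%, taking 3 fragments as the limit of a count of 0. Per kilobase of exon the proximal levels of the copies were closer, 1.46 ± 0.22 CPM for fshr.L and 0.95 ± 0.13 CPM for fshr.S (SD, n = 2 each), a ratio of 1.54. In medial that ratio was 0.964 from the means, but 0.64 in pool 1 and 3.09 in pool 2, so the medial pools did not give 1 order of the copies.

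A list of 152 peptide hormone and receptor genes was used to place the 4 genes among others of their kind. Without the 4, the authors' deposited table named 48 copies of 35 of these genes, and all 48 passed the filter. Between distal and proximal 13 copies rose and 33 fell by edgeR, 46 in all (95.8%). Only genes in the authors' table of calls carry a name, so this share is read against the 88.3% called among all 6912 named genes tested. Among those named genes 2716 rose and 3384 fell, and among all genes 13.6% rose and 15.9% fell. The median log2 fold change over the 48 copies was −1.55 (−1.51 with genes at 0 in a segment set to their bound), beside −0.36 over all named genes and −0.0033 over all genes tested. These medians, here and in the other comparisons, are of genes not matched for level, and many of the 48 copies had few fragments. The gap is therefore not read as a property of peptide genes.

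Distal against medial, 13 copies of the list rose and 24 fell (77.1%, against 76.8% of named genes and 25.0% of all genes). Among named genes 2463 rose and 2842 fell, and among all genes 12.1% rose and 12.9% fell. The median of the list was −0.56 beside −0.19 over all named genes. Without distal pool 1 fewer copies of the list were called, and the share of all genes called in that fit is not given here. Medial against proximal, 5 rose and 13 fell (37.5%, against 26.6% of named genes and 7.6% of all genes). Among named genes 679 rose and 1157 fell, and among all genes 2.73% rose and 4.88% fell. The median of the list was 0.06 beside 0.01 over all named genes. Fewer copies of the list were called without proximal pool 2, again with no share of all genes to set beside them.

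Of 5 named ligand copies other than pnoc.L and nmu.S, 4 were higher in distal than in proximal by edgeR and 1 was lower. That all 5 were called says little, since 88.3% of named genes were (2716 higher and 3384 lower of 6912). penk.S, the precursor of the enkephalins and a relative of pronociceptin, had 23 and 18 fragments in distal, 13 and 4 in medial, and 0 and 10 in proximal. Its distal mean was 1.09 ± 0.18 CPM, against 0.31 ± 0.23 CPM in medial and 0.14 ± 0.20 CPM in proximal (SD, n = 2 each). penk.S rose in distal, against proximal by 2.33 on the log2 scale (SE 0.66, edgeR adjusted p = 0.0218) and against medial by 1.77 (SE 0.59, edgeR adjusted p = 0.0494). The distal to proximal call was lost without distal pool 1 (adjusted p = 0.0841), distal pool 2 (0.103) or proximal pool 1 (0.0517) and with DESeq2 (0.0546). The distal to medial call was lost without distal pool 1 (0.169), distal pool 2 (0.209) or medial pool 2 (0.184), with DESeq2 (0.208) and with RLE size factors (0.0505). Without medial pool 1 the distal to medial value was 2.83, and without proximal pool 2 the remaining proximal library was at 0.

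sst.1.S, which encodes a somatostatin precursor, had 34 and 10 fragments in distal, 6 and 2 in medial, and 2 and 2 in proximal. Its means were 1.05 ± 0.53 CPM in distal, 0.15 ± 0.10 CPM in medial and 0.12 ± 0.09 CPM in proximal (SD, n = 2 each). Both proximal counts lay under the floor of 3 fragments, as did that of medial pool 2. Pooled, its distal level was 13.1-fold above proximal (exact 95% interval 4.78 to 50.3, edgeR adjusted p = 0.00290). It rose in distal against medial by 2.87 on the log2 scale (SE 0.61, edgeR adjusted p = 0.00529). The first call was lost without distal pool 1 (adjusted p = 0.0765) or proximal pool 2 (0.118), and the second without distal pool 1 (0.150). Without medial pool 1 the distal to medial value was 3.83. The fitted distal to proximal value, 3.57 on the log2 scale, ranged up to 4.18 (without proximal pool 1) and down to 2.504 (without proximal pool 2). sst.1.S was thus highest in distal, where sstr3.L had 2 and 0 fragments.

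Both named copies of the neuromedin U receptor nmur1 were, like nmu.S, lowest in distal. Of 6912 named genes tested, 3384 fell in distal against proximal, so 2 copies that fall say little. nmur1.L had 10 and 9 fragments in distal, 53 and 63 in medial, and 27 and 76 in proximal, which gave means of 0.51 ± 0.13 CPM in distal, 2.12 ± 0.24 CPM in medial and 2.34 ± 0.30 CPM in proximal (SD, n = 2 each). It fell in distal, both against proximal (−2.19 on the log2 scale, SE 0.34, edgeR adjusted p = 0.000502) and against medial (−2.09, SE 0.33, edgeR adjusted p = 0.000847). nmur1.S had 2 and 6 fragments in distal, 45 and 24 in medial, and 32 and 82 in proximal. Its log2 fold change was −3.58 against proximal, with SE 0.56 and an edgeR adjusted p of 0.000641, and −2.56 against medial, with SE 0.60 and an edgeR adjusted p of 0.0101. Both values turned on the distal pools: against proximal it was −2.65 without distal pool 1 and −4.86 without distal pool 2, and against medial −3.85 without distal pool 2. The call against medial was lost without distal pool 1 (−1.62, adjusted p = 0.152). Between medial and proximal neither copy was called (edgeR adjusted p = 0.923 for nmur1.L and 0.169 for nmur1.S), although nmur1.S passed without medial pool 1 (0.0244) and with no filter on low counts (0.0185).

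The other named glycoprotein hormone receptors also had few or no fragments in distal, where 3384 of 6912 named genes fell against proximal. lhcgr.L, the luteinizing hormone receptor, is the next gene after fshr.L on chromosome 5L, 110.4 kilobases away. It had no fragment in any distal or medial library and 5 and 23 fragments in the proximal pools, a mean of 0.56 ± 0.12 CPM (SD, n = 2). The distal level was at least 2.75-fold lower than the proximal one (edgeR adjusted p = 0.00329) and the medial level at least 5.07-fold lower (edgeR adjusted p = 0.00568). Without proximal pool 2 the remaining 5 fragments of lhcgr.L fell under the filter's smallest total of 15, so it could not be tested. tshr.L, the thyrotropin receptor, had 16 and 6 fragments in distal, 58 and 55 in medial, and 28 and 99 in proximal. tshr.L fell in distal, by a log2 change of −2.27 against proximal (SE 0.31, edgeR adjusted p = 0.000228) and of −1.87 against medial (SE 0.32, edgeR adjusted p = 0.00130), with no call between medial and proximal (−0.40, SE 0.24, edgeR adjusted p = 0.470). Subunits of the glycoprotein hormones themselves were not among the named genes.

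Somatostatin receptors differed in their courses. sstr4.L had the most fragments of them, with 16.6 ± 0.72 CPM in distal, 10.6 ± 0.18 CPM in medial and 5.46 ± 0.43 CPM in proximal (SD, n = 2 each), and it rose in distal against proximal (1.62 on the log2 scale, SE 0.14, edgeR adjusted p = 4.98e-06). Its homeolog sstr4.S had 3 and 3 fragments in distal, 34 and 26 in medial, and 17 and 50 in proximal. Pooled, its distal level was 9.35-fold below proximal (exact 95% interval 4.08 to 26.4, edgeR adjusted p = 0.000368), the opposite direction to sstr4.L.

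sstr2.L had 1 fragment in each distal library, 48 and 27 in medial, and 8 and 16 in proximal. Its distal level was 26.5-fold below medial (exact 95% interval 7.09 to 223, edgeR adjusted p = 0.000552) and 10.05-fold below proximal (2.495 to 87.7, edgeR adjusted p = 0.0124). The call against proximal was lost without distal pool 1 (adjusted p = 0.127). sstr5.S was highest in medial, at 1.61 ± 0.50 CPM in distal, 4.52 ± 0.64 CPM in medial and 1.87 ± 0.64 CPM in proximal (SD, n = 2 each). It fell in distal against medial (−1.54 on the log2 scale, SE 0.29, edgeR adjusted p = 0.00229) and was higher in medial than in proximal (1.16, SE 0.27, edgeR adjusted p = 0.0217). The first call was lost without distal pool 1 (adjusted p = 0.0621), and the second without proximal pool 1 (0.114), without proximal pool 2 (0.0506) and with DESeq2 (0.0554).

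**Figure D3:**
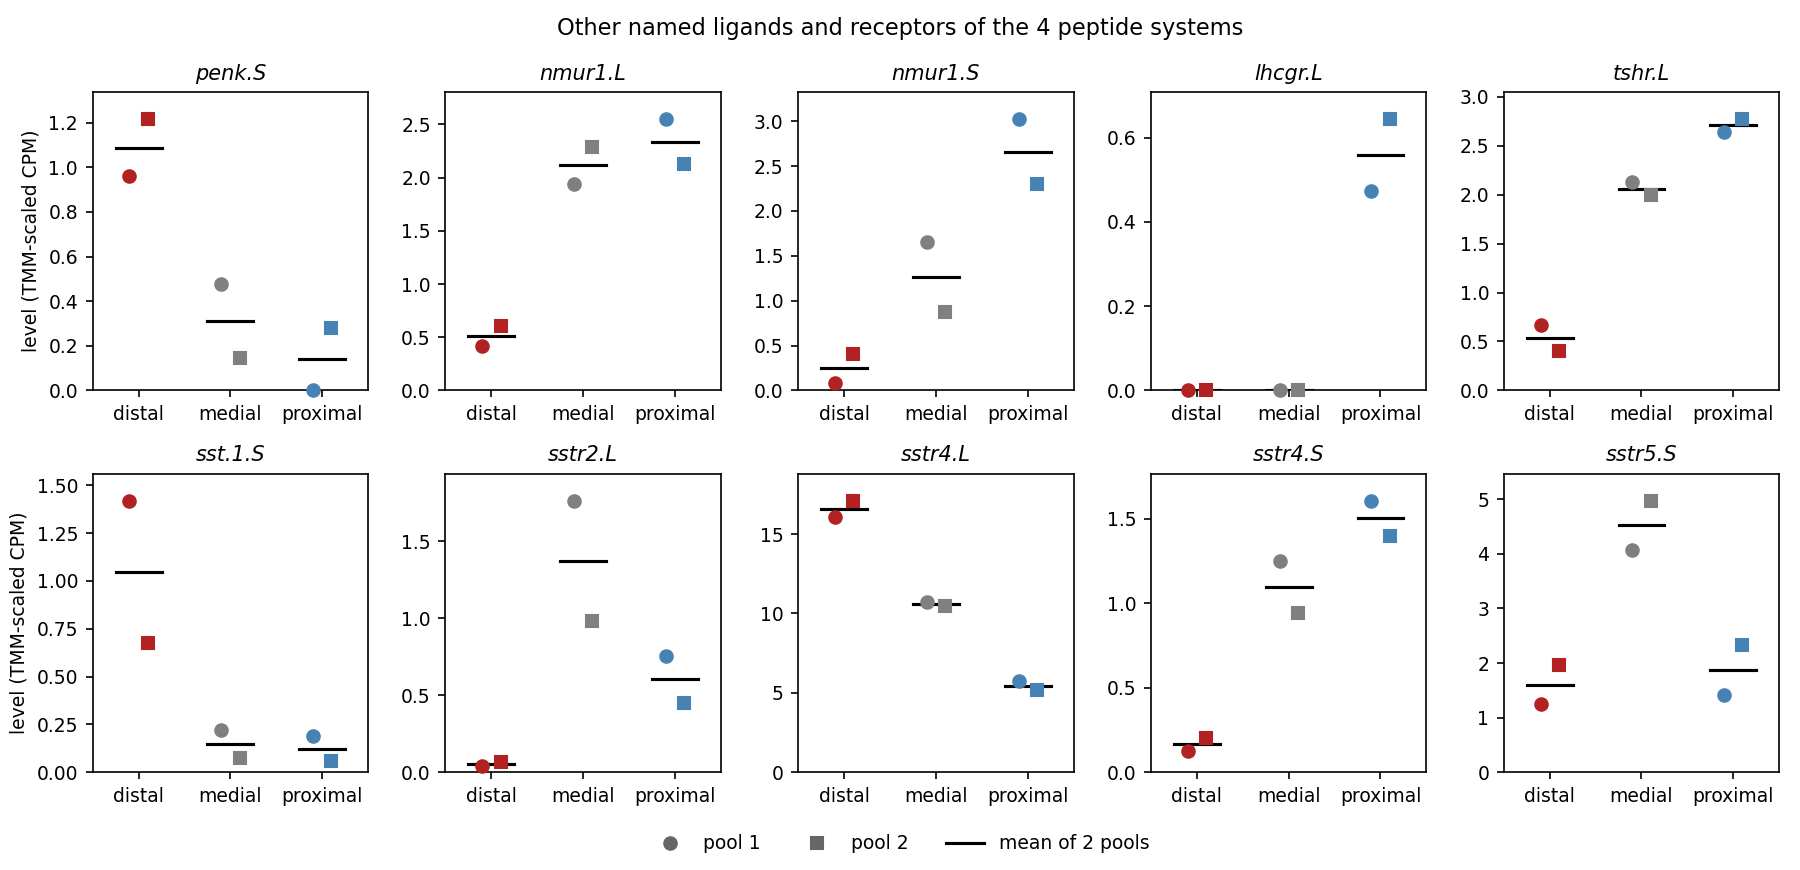
Level of the 10 other named ligands and receptors of the opioid, neuromedin U, glycoprotein hormone and somatostatin systems in each library (vertical axis, TMM-scaled CPM, with its own scale in each panel) by segment (horizontal axis). Points are the 2 pools and bars their mean. By mean, penk.S, sst.1.S and sstr4.L are highest in distal, sstr2.L and sstr5.S in medial, and nmur1.L, nmur1.S, lhcgr.L, tshr.L and sstr4.S in proximal; the medial and proximal pools of nmur1.L overlap.

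Among receptors of other peptides with at least 1 CPM in the higher segment, the largest called falls in distal against proximal were in vipr1.S (log2 fold change −4.23, SE 0.36), ednrb2.S (−4.22, SE 0.45), npr1.S (−4.21, SE 0.22) and bdkrb2.L (−3.96, SE 0.36), each with an edgeR adjusted p of 0.000122 or lower. Without distal pool 1, ednrb2.S was at −5.85 and bdkrb2.L at −5.06. They are receptors of vasoactive intestinal peptide, endothelins, natriuretic peptides and bradykinin. npr1.S, like fshr.L, was far higher in proximal than in medial, with 1.20 ± 0.40 CPM in distal, 1.52 ± 0.35 CPM in medial and 21.4 ± 0.22 CPM in proximal (SD, n = 2 each). The homeologs vipr1.L, ednrb2.L and bdkrb2.S also fell in distal against proximal, by less (−3.42, −3.47 and −2.25 on the log2 scale). npr1.L changed least of the homeologs (−0.83), with 5.45 ± 0.55 CPM in distal, 5.24 ± 0.74 CPM in medial and 9.71 ± 0.64 CPM in proximal.

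By mean, vipr1.S and bdkrb2.L were highest in medial, but neither was called between medial and proximal (edgeR adjusted p = 0.150 and 0.114). With the replicate number added to the edgeR fit as a block, both were called (adjusted p = 0.0188 and 0.0341). vipr1.S had 0.34 ± 0.10 CPM in distal, 10.4 ± 2.63 CPM in medial and 6.57 ± 1.68 CPM in proximal, and bdkrb2.L had 0.53 ± 0.37 CPM in distal, 15.1 ± 2.13 CPM in medial and 8.86 ± 2.64 CPM in proximal (SD, n = 2 each). Distal against medial, the largest called differences under the same rule were in vipr1.S (−4.83, SE 0.34), bdkrb2.L (−4.67, SE 0.34), rxfp1.L, a relaxin receptor (−4.48, SE 0.29), and vipr1.L (−4.11, SE 0.29), with edgeR adjusted p values of 2.45e-05 or lower. Without distal pool 1, bdkrb2.L was at −5.77.

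Between medial and proximal the largest called difference under that rule was in galr1.S, a galanin receptor, with 2 and 1 fragments in medial and 13 and 44 in proximal. Its pooled medial level was 22.5-fold below proximal (exact 95% interval 7.32 to 112, edgeR adjusted p = 0.00187). npr1.S fell in medial by −3.81 on the log2 scale (SE 0.20, edgeR adjusted p = 6.9e-07) and vipr2.L by −3.49 (SE 0.49, edgeR adjusted p = 0.000902). tacr1.S, a tachykinin receptor, was instead higher in medial, with 4.65 ± 1.18 CPM in medial and 0.37 ± 0.01 CPM in proximal (SD, n = 2 each; log2 fold change of 3.64 with SE 0.34, edgeR adjusted p = 4.97e-05).

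Other named genes shared the distribution of each of the 4 over the 6 libraries. Likeness was measured as the overlap of library shares: each library's part of a gene's summed CPM, compared between 2 genes by adding the smaller part over the 6 libraries, over 5361 named genes with at least 1 CPM in their highest segment and no provisional name. The nearest to pnoc.L included cdh20.S, a cadherin, with an overlap of 95.6% and cacng5.L with 95.1%. The median overlap with pnoc.L was 32.0%. cdh20.S averaged 20.9 CPM in distal, 1.41 CPM in medial and 0.24 CPM in proximal.

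For nmu.S the nearest were tnnt1.L, a troponin of slow muscle (94.2%), chrna6.L, a nicotinic acetylcholine receptor subunit (93.8%), and cyp27c1.L, a cytochrome P450 enzyme (93.6%), against a median of 64.8%. chrna6.L, like nmu.S, averaged 0 CPM in distal, with 0.49 CPM in medial and 1.11 CPM in proximal. For fshr.L they were pkdcc.2.L, a secreted kinase (97.4%), zfpm2.S, a cofactor of GATA factors (96.9%), and hoxb3.L, a homeobox gene (96.1%), against a median of 47.9%. pkdcc.2.L averaged 0.88 CPM in distal, 25.5 CPM in medial and 151 CPM in proximal.

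For sstr3.L the nearest included tnn.L, the matrix protein tenascin N (94.4%) and pcsk2.S, a protease that cuts peptide hormone precursors (94.2%), against a median of 36.1%. tnn.L averaged 3.24 CPM in distal, 3.93 CPM in medial and 109 CPM in proximal. These overlaps describe 6 libraries of 3 segments, in which all genes share depth and composition, and they carry no test.

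**Figure D4:**
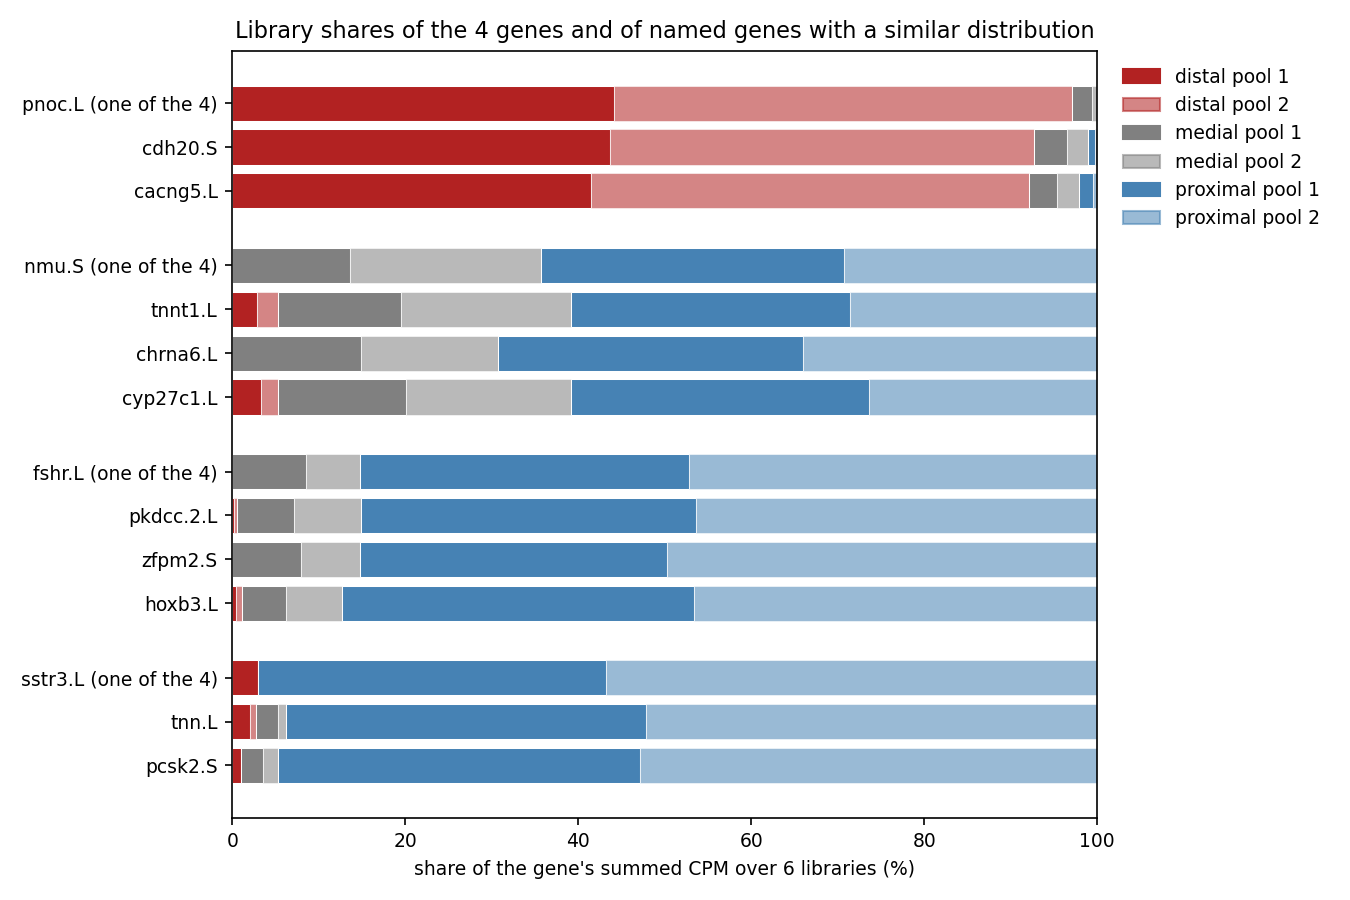
Share of each gene's summed CPM that fell in each of the 6 libraries (horizontal axis, percent), for pnoc.L, nmu.S, fshr.L and sstr3.L and the 2 or 3 named genes described with each. Bar colours are segments, and the paler part of a colour is pool 2. The distal libraries hold nearly all of pnoc.L and its nearest genes, and the proximal libraries nearly all of sstr3.L and its nearest genes.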

How the data were processed

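RNA of 6 pools was sequenced by the submitters. The submitters' processing notes name Trimmomatic 0.39, HISAT2 2.2.1, SAMtools 1.10, featureCounts 2.0.1 and DESeq2 1.30.1. Per the file headers, featureCounts was run by the authors with its option for paired reads and no other counting option, so strand was not used and a fragment with several places or genes was not counted. The values are raw fragment counts as deposited. The authors' deposited table gives log2 fold changes and adjusted p-values of genes under 0.05. It names 6943 gene IDs and is the only source that pairs IDs with names. The genome build is not given in the sources used here.

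Genes with few counts were removed by filterByExpr (10 as the smallest count, 15 as the smallest total). The other 27007 were scaled with TMM factors and tested over all 6 libraries with edgeR 4.0.16 under R 4.3.3 (quasi-likelihood, robust, segment as the only factor, 3 residual degrees of freedom), with Benjamini-Hochberg adjustment and a threshold of 0.05. The comparisons share libraries. The standard error (SE) of a log2 fold change was taken from its F statistic. The study's design text calls the pools biological replicates. Replicate pools differed by more than sampling noise (chi-square per degree of freedom 2.93 to 13.1). Alternatives were RLE factors, no filter, DESeq2 1.42.0, a replicate block and leaving out each library.

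A fold against libraries all at 0 is the mean of the higher segment over the highest floor of 3 fragments in the lower segment. With a few fragments, the ratio of pooled rates has an exact 95% interval. This replaced the planned bound for sstr3.L in distal. The rule for named genes took the 4 genes, other copies of their roots, all named copies of the 4 systems, the 4 largest called log2 fold changes per comparison among other peptide genes with at least 1 CPM, and the 3 genes with the highest overlap, of which some are not reported here. Neighbouring genes were added after values were seen. Members and lists were chosen with earlier results of these data known.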

Additional observations from a re-analysis of the deposited data

How the results depend on the processing

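Peptide list calls between distal and proximal (46) ranged from 34 to 46 over leaving out each library. Between distal and medial (37) they ranged from 24 to 37, and between medial and proximal (18) from 7 to 23. Without a filter on low counts 28 were called between medial and proximal, and the replicate block gave 46, 38 and 25 in the 3 comparisons. The share of all genes called in each of these settings is not given here. Whether the list changed more than other genes did was therefore not tested. fshr.S over leaving out each library ranged from −3.29 to −2.59 (distal against proximal), −1.74 to 0.93 (distal against medial, the value of 0.93 without medial pool 1) and −3.77 to −1.10 (medial against proximal). Its medial to proximal value was called without the filter (−1.89, adjusted p = 0.000137) and with the replicate block (−2.07, adjusted p = 0.0391). The cause was not tested. The labels do not say that pools of one colour share limbs. The correlation of deviations of same-numbered pools was 0.025 between distal and proximal, 0.054 between distal and medial and 0.20 between medial and proximal. Of 48 other single-gene values, the replicate block left all on their side of the threshold, RLE factors 47, no filter 46 and DESeq2 44 of the 47 it tested. Leaving out distal pool 1 or proximal pool 2 changed more of the 48 than any of those settings did, in side of the threshold or in sign. These 48 leave out vipr1.S and bdkrb2.L between medial and proximal, which edgeR called only with the replicate block of these 2 fits (adjusted p = 0.0188 and 0.0341, against 0.150 and 0.114). The same holds for vipr1.L (0.00274, against 0.109), ednrb2.S (0.0188, against 0.0543), ednrb2.L (0.0402, against 0.347) and ednra.S (0.0130, against 0.0660). Between distal and medial it holds for adcyap1.L (edgeR adjusted p = 0.0415 with the block, against 0.0732).

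With a floor of 3 fragments over both libraries of the lower segment, which is a lower floor by construction, the bounds became 46.8-fold for pnoc.L, 58.2-fold for nmu.S, 92.9-fold for fshr.L (distal and proximal) and 24.9-fold for sstr3.L (medial and proximal). Over leaving out each library they ranged from 9.76 to 36.1 for pnoc.L, 20.2 to 35.8 for nmu.S, 31.7 to 57.2 for fshr.L and 10.2 to 14.5 for sstr3.L, the highest of the first 3 without the shallower library at 0 (proximal pool 1 for pnoc.L, distal pool 2 for nmu.S and fshr.L). RLE factors and no scaling factor moved none of these 4 bounds by more than the spread of the pools. Some uncalled values changed sign when 1 library was left out. For sstr5.S, distal against proximal, the range was −0.68 to 0.13 (0.13 without proximal pool 2). Medial against proximal it was −0.51 to 5.73 for penk.S, −0.26 to 0.014 for nmur1.L (each with its changed sign without medial pool 1) and −0.35 to 1.31 for sst.1.S (−0.26 without medial pool 1 and −0.35 without proximal pool 2). For sstr3.L, the floor of distal pool 2 is 0.203 CPM, so a level below that could not be detected there.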

Other observations

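Several peptide genes outside the 4 systems were higher in the distal segment, like pnoc.L. They were chosen after their values had been seen. Of the 34 named copies of other peptide receptors, 8 were called higher in distal than in proximal by edgeR and 25 lower. Among 6912 named genes tested, 2716 were higher and 3384 lower. gcgr.L, the glucagon receptor, had 119 and 98 fragments in distal, 39 and 22 in medial, and 3 and 21 in proximal (3.49 on the log2 scale in distal against proximal, SE 0.36, edgeR adjusted p = 2.7e-05, and 4.31 without proximal pool 2). npr3.L, the clearance receptor of natriuretic peptides, was well covered in every segment and rose by 1.55 (SE 0.11, edgeR adjusted p = 1.34e-06) to 131 ± 11.4 CPM in distal, against 52.9 ± 6.62 CPM in medial and 44.9 ± 0.45 CPM in proximal (SD, n = 2 each). gip.L, which encodes a gut hormone of the glucagon family, had 20 and 10 fragments in distal, 3 and 1 in medial, and 0 and 1 in proximal.

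The copies of adcyap1, the precursor of the neuropeptide PACAP, went opposite ways. adcyap1.L rose in distal against proximal (2.17 on the log2 scale, SE 0.32, edgeR adjusted p = 0.000402), with 3.001 ± 0.05 CPM in distal, 1.82 ± 0.55 CPM in medial and 0.63 ± 0.09 CPM in proximal. adcyap1.S fell (−2.04, SE 0.51, edgeR adjusted p = 0.0102, lost without distal pool 1 at 0.154, and −2.68 without distal pool 2), with 0.29 ± 0.17 CPM in distal, 1.37 ± 0.07 CPM in medial and 1.20 ± 0.44 CPM in proximal (SD, n = 2 each).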
